A study of Mus musculus with 32 samples.

Results

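The T1 effect on RNA levels in sorted *Six2*-lineage kidney cells was compared between embryonic days E14.5 and E18.5, using all 12 libraries of these cells out of 32 libraries in the series. The 12 libraries fell into 4 groups of 3, namely WT and T1 at each stage. For each gene the T1 effect at a stage was the log2 ratio of T1 to WT, and the quantity reported here is the difference of the T1 effects, E18.5 minus E14.5. A positive difference therefore says that T1 stood higher relative to WT at E18.5 than at E14.5. It equally says that the gene's change from E14.5 to E18.5 was more upward in T1 than in WT cells.

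The study asked how mutations in the YEATS domain of ENL act on kidney development. WT embryos were Six2-TGC tg/+; Enl +/+, and T1 embryos were Six2-TGC tg/+; Enl T1/+, so all 4 groups carried the transgene and the mutant embryos kept a wildtype *Enl* copy. Six2-TGC is a BAC transgene that drives a GFP-tagged Cre in nephron progenitors, and a Cre-dependent red reporter, LSL-tdT, was in the crosses, so that tdT+ cells sorted from the kidney were progenitors and the cells that descended from them. The transgene has been reported to carry *Six3*. In T1 cells, Cre removes a wildtype cassette and the mutant protein, which carries a short insertion in its YEATS domain, is made from the endogenous promoter. The knock-in allele was made in C57BL/6J mice. Per the study's methods, E14.5 kidneys were dissociated with trypsin and E18.5 kidneys with collagenase II, which both genotypes of a stage shared, so that for any gene the stage and the dissociation cannot be told apart. Nothing in the labels says from how many embryos a replicate came, and p-values therefore measure the spread between these samples.

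ENL, encoded by *Mllt1*, is a chromatin reader. Its YEATS domain binds acylated histone tails and the protein recruits transcription elongation machinery to active genes. In the developing kidney, SIX2+ progenitors either self-renew in the cap mesenchyme or are induced to form the renal vesicle, which then patterns into podocytes, proximal tubule, loop of Henle and distal tubule. Nephrons accumulate between E14.5 and E18.5, and sorted *Six2*-lineage cells change from mostly progenitor cells to a mixture with many differentiated derivatives.

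Libraries held between 76510702 and 137888792 counted reads, with 115625561 or more at E14.5 and 92026288 or fewer at E18.5. A level of 3 counts, taken here as the detection floor, corresponded to 0.0212 to 0.0246 CPM, which are counts scaled to a common library size, at E14.5 and to 0.0326 to 0.0426 CPM at E18.5. Such floors cover counting error only. Mitochondrial transcripts made up 0.599 to 0.803% of counts at E14.5, 4.77 to 7.59% in E18.5 WT and 4.63 to 4.85% in E18.5 T1. The first principal component of log CPM carried 73.5% of the variance and separated the stages, the second carried 7.34% and separated T1 from WT at both stages, and the next component carried 3.38%. On that last component T1 lay below WT at E14.5 (-43.05 to -32.44 against 19.69 to 51.35) and above WT at E18.5 (20.92 to 23.74 against -27.95 to -15.15). *Mllt1* itself was measured at 225 to 233 CPM in E14.5 WT, 200 to 208 CPM in E14.5 T1, 84.9 to 93.2 CPM in E18.5 WT and 82.1 to 88.9 CPM in E18.5 T1. Its T1 effect did not differ detectably between stages (difference 0.13 ± 0.07 SE, adjusted p = 0.338), and the counts do not separate mutant from wildtype transcripts. *Ddx3y*, a Y-linked gene, stood at 122 to 143 CPM in 1 E14.5 WT, 2 E14.5 T1, 1 E18.5 WT and 1 E18.5 T1 library and at no more than 0.0266 CPM in the other 7, so that the sexes were not equally shared at E14.5.

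Of 25222 genes tested with edgeR's quasi-likelihood test and Benjamini-Hochberg adjustment, 995 had a positive difference and 1064 a negative difference at an adjusted p under 0.05, which is 3.94% and 4.22% of the genes tested. The counts of called list members given below are to be read beside these 2 shares. The median difference over all tested genes was 0.02. Among called genes the size of the difference had a median of 0.63 in the positive and 0.94 in the negative direction, and 287 and 498 of them exceeded 1 on the log2 scale. Called genes with a negative difference had a median change from E14.5 to E18.5 of 1.41 in WT, against 0.25 in T1. Called genes with a positive difference had a median WT change of -0.42 and a median T1 change of 0.39. The difference is the T1 change minus the WT change, so which genotype has the higher median follows from the selection and is not a separate result. With libraries scaled by total count alone the split moved to 1268 positive and 882 negative genes, and with no low-count filter to 878 and 1477. Leaving out E18.5 WT replicate 2, E18.5 WT replicate 3 or any of the 3 E18.5 T1 libraries brought the positive count to between 453 and 558.

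The single-stage effects behind these differences took several forms. A single-stage call here needs a fold change above 1.5 beside an adjusted p below 0.05, and 4.28% of tested genes were called up and 2.47% down at E14.5, and 4.66% up and 4.26% down at E18.5. Of the 1064 genes with a negative difference, 379 were called down at E18.5 only, 203 were called up at E14.5 only, 53 were called up at E14.5 and down at E18.5, 28 were down at both stages, 19 were up at both stages and 382 passed at neither. Of the 995 with a positive difference, 225 were called up at E18.5 only, 179 down at E14.5 only, 53 up at both stages, 11 down at E14.5 and up at E18.5, 9 down at both, and 518 passed at neither. These counts describe the terms of the same fit and are not separate evidence. The plot of E14.5 against E18.5 effects shows the called genes on either side of the line of equal effects.

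**Figure D1:**
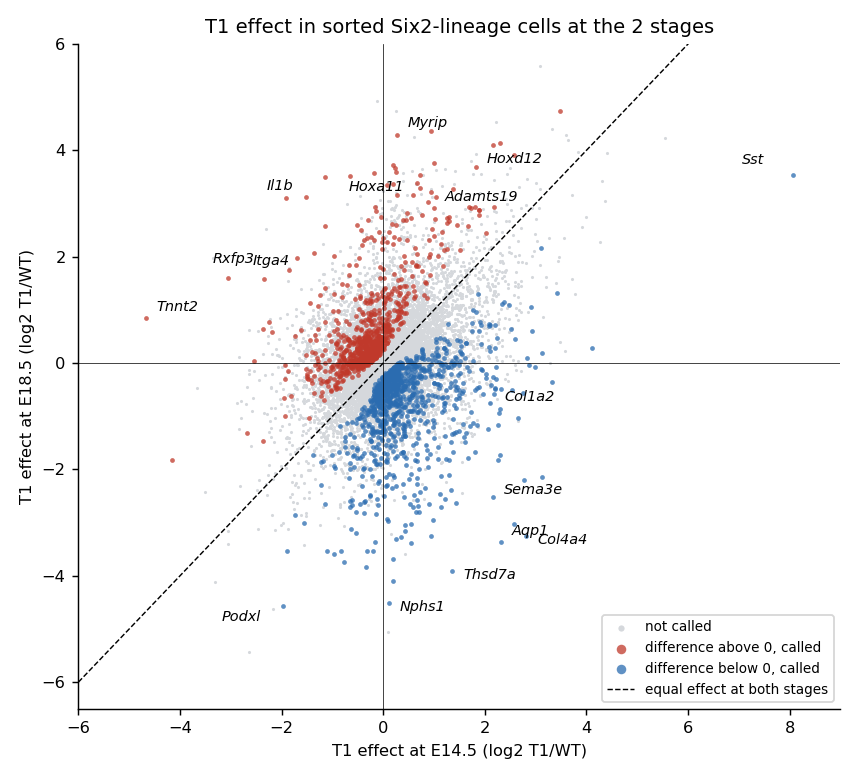
T1 effect (log2 T1/WT) at E14.5 on the horizontal axis and at E18.5 on the vertical axis for the 22352 tested genes whose mean count exceeded 3 in every group. Red and blue points are genes called with a positive or negative difference, and the dashed line marks equal effects. *Col4a4* (2.81 and -3.26) lies at the lower right and *Rxfp3* (-3.06 and 1.60) at the upper left.

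Podocyte genes had the most negative differences of the lists of kidney cell types. All 21 podocyte genes were tested, 15 were called with a negative difference and 0 with a positive one, and the median difference was -2.43. Their median T1 effect was 0.09 at E14.5 and -2.98 at E18.5. The summed level of the 21 genes was 1789 to 2012 CPM in E14.5 WT, 1591 to 1772 CPM in E14.5 T1, 5739 to 6485 CPM in E18.5 WT and 1514 to 1633 CPM in E18.5 T1. A large part of the E14.5 sums came from 1 gene, *Cdkn1c*. Its group means were 917 CPM in E14.5 WT, 689 CPM in E14.5 T1, 627 CPM in E18.5 WT and 186 CPM in E18.5 T1. The E14.5 sums therefore do not measure the level of podocyte-specific genes such as *Nphs1*. In bulk RNA of sorted cells, fewer podocytes and less RNA per podocyte cannot be told apart. Between 12 and 17 of the genes were called with any 1 library left out, and the median moved to -1.31 without E14.5 T1 replicate 3, against -2.51 to -2.30 without any other.

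*Nphs1* encodes nephrin, the core protein of the slit diaphragm between podocyte foot processes. It stood at 0.569, 0.721 and 0.833 CPM in the E14.5 WT libraries and at 0.748, 0.802 and 0.761 CPM in E14.5 T1, then at 202, 219 and 192 CPM in E18.5 WT and at 8.47, 8.55 and 9.80 CPM in E18.5 T1. The genotypes overlapped at E14.5 and were far apart at E18.5, which gave a difference of -4.64 ± 0.16 (SE; adjusted p = 1.48e-09), a 24.9-fold change of the T1 to WT ratio. *Nphs1* lies at chr7:30458315-30487223 on the plus strand (GRCm38), and 11.8% of its exon length is shared with the antisense gene *Nphs1os*, whose reads cannot be told apart here because counting ignored strand.

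*Col4a3* and *Col4a4* encode collagen IV chains of the mature glomerular basement membrane and sit head to head on chromosome 1, *Col4a4* at chr1:82448423-82586849 on the minus strand and *Col4a3* at chr1:82586921-82722059 on the plus strand. *Col4a4* rose in T1 at E14.5, from 0.148, 0.0856 and 0.130 CPM in WT to 0.903, 0.737 and 0.912 CPM in T1. At E18.5 it was at 162, 194 and 172 CPM in WT and at 20.3, 15 and 19.7 CPM in T1. The T1 libraries were thus all above the WT libraries at one stage and all below them at the other, and the difference was -6.07 ± 0.24 (adjusted p = 4.78e-09). *Col4a3* had overlapping E14.5 groups (0.234 to 0.405 CPM in WT, 0.303 to 0.458 CPM in T1), E18.5 levels of 166 to 207 CPM in WT and 9.20 to 11.6 CPM in T1, and a difference of -4.30 ± 0.26 (adjusted p = 5.42e-07).

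*Podxl*, which encodes the anionic surface protein podocalyxin, differed from *Nphs1* in being lower in T1 at both stages. Its WT libraries were at 11.4, 7.51 and 12.5 CPM at E14.5 and its T1 libraries at 2.93, 2.35 and 2.74 CPM. At E18.5 the WT libraries were at 1793, 2041 and 1751 CPM and the T1 libraries at 75.8, 66.0 and 92.6 CPM. The T1 effect thus went from -1.97 to -4.57, a difference of -2.61 ± 0.23 (adjusted p = 1.53e-05).

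Other podocyte genes with negative differences were *Thsd7a*, a membrane protein of podocyte foot processes (1.06 to 1.23 CPM in E14.5 WT, 2.96 to 3.05 in E14.5 T1, 205 to 244 in E18.5 WT and 13.3 to 15.6 in E18.5 T1, difference -5.27 ± 0.13, adjusted p = 3.01e-11), and *Ptpro*, a podocyte receptor phosphatase (difference -3.85 ± 0.26, adjusted p = 1.07e-06). *Rhpn1*, *Magi2* and *Synpo*, the last of which encodes an actin-associated protein of foot processes, had differences of -3.34, -3.07 and -2.47 (adjusted p = 6.69e-08, 6.69e-08 and 0.000246). The transcription factor gene *Tcf21* had a difference of -0.90 (adjusted p = 0.003). *Foxc2* (-0.24) and *Plce1* (-0.28) were not called (adjusted p = 0.243 and 0.253).

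Proximal tubule genes shared the negative direction. Of 21 tested, 10 were called with a negative and 0 with a positive difference, and the median difference was -1.54 over all of them and -1.10 over the 18 whose mean count exceeded 3 in every group. With 1 library left out, 8 to 15 were called, and 6 with limma-voom. The summed level was 59.3 to 123 CPM in E14.5 WT, 77.0 to 83.9 CPM in E14.5 T1, 1908 to 2522 CPM in E18.5 WT and 624 to 700 CPM in E18.5 T1.

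*Cubn* and *Lrp2* encode cubilin and megalin, the endocytic receptors with which proximal tubule cells take up filtered protein. *Cubn* was at 0.234, 0.549 and 0.283 CPM in E14.5 WT, at 0.599, 0.0736 and 0.740 CPM in E14.5 T1, at 168, 186 and 136 CPM in E18.5 WT and at 16.2, 17.9 and 20.5 CPM in E18.5 T1. The E14.5 groups overlapped, the E18.5 groups did not, and the difference was -3.59 ± 0.57 (adjusted p = 0.00143). It was not called by limma-voom with sample quality weights. *Lrp2* had 3.09 to 6.83 CPM in E14.5 WT, 3.60 to 6.01 CPM in E14.5 T1, 946 to 1292 CPM in E18.5 WT and 370 to 394 CPM in E18.5 T1, with a difference of -1.54 ± 0.34 (adjusted p = 0.0128).

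*Aqp1*, the water channel of the proximal tubule and thin descending limb, was called at both stages in opposite directions. It rose at E14.5 from 0.164, 0.0928 and 0.252 CPM in WT to 1.13, 0.278 and 1.10 CPM in T1, and fell at E18.5 from 56.5, 63.4 and 40.7 CPM to 4.97, 6.20 and 4.44 CPM. The lowest E14.5 T1 library stood barely above the highest E14.5 WT library, whereas the E18.5 groups were well separated, and the difference was -5.68 ± 0.57 (adjusted p = 3.55e-05). E14.5 T1 replicate 2, the lowest for *Aqp1*, also had the lowest summed level of 12 stromal genes in its group. That sum was 1035 CPM there and 1933 and 2157 CPM in the other E14.5 T1 libraries. The part of stromal cells in the E14.5 *Aqp1* values was not tested. *Ass1*, which encodes argininosuccinate synthase, and *Slc5a2*, the glucose transporter of the early proximal tubule, had differences of -2.52 and -1.94 (adjusted p = 0.000155 and 0.0103), and 20.6% of the exons of *Slc5a2* overlap *BC017158*. The E14.5 WT libraries of *Fbp1*, the gluconeogenic bisphosphatase gene, were under the floor at 0, 0 and 0.0153 CPM. *Kap* and *Miox* were at 0 in all 6 E14.5 libraries, so no fold is given for these 3 genes. At E18.5 *Kap* was at 1.5 to 8.37 CPM in WT and 0.0666 to 0.305 CPM in T1.

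Of the 21 proximal tubule genes, 20 had fitted differences below 0 and 1, *Hnf4a*, lay above 0. Not all of the 20 were called. *Hnf4a*, the transcription factor gene that proximal tubule differentiation depends on, was at 2.84, 5.99 and 13.8 CPM in E14.5 WT, at 2.42, 3.08 and 1.33 CPM in E14.5 T1, at 112, 97.5 and 84.5 CPM in E18.5 WT and at 43.5, 24.1 and 24.9 CPM in E18.5 T1. Its T1 effects of -1.73 and -1.67 gave a difference of 0.07, with a 95% interval of -1.12 to 1.25 (adjusted p = 0.978), which is too wide to say that the effects were alike. *Slc34a1*, the main phosphate transporter of this segment, was at 0 to 0.319 CPM at E14.5. At E18.5 it was at 152 to 200 CPM in WT and 29.5 to 30.8 CPM in T1. Its fitted difference of -2.35 was not called (adjusted p = 0.164).

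Of 18 loop of Henle and distal tubule genes tested, 1 was called with a negative and 0 with a positive difference, and their median difference was -0.24. The 1 call is 5.56% of the list, near the 4.22% of all tested genes. The number called was 3 without E14.5 WT replicate 3 or E14.5 T1 replicate 1 and 4 with DESeq2, and the median was -0.42 without E18.5 T1 replicate 1. Fitted values lay below 0 for 11 genes and above 0 for 7, among them *Pou3f3* (1.09), *Sim1* (1.06), *Irx1* (1.05) and *Irx2* (0.90). The called gene was *Cldn10*, which encodes a tight junction claudin of the thick ascending limb. It rose at E14.5 from 2.16, 1.62 and 1.12 CPM in WT to 6.52, 7.63 and 8.37 CPM in T1, and at E18.5 it was at 11 to 16.3 CPM in WT and 8.26 to 10.6 CPM in T1, a difference of -2.68 ± 0.30 (adjusted p = 8.89e-05). *Umod*, the uromodulin gene of the thick ascending limb, had similar estimates at both stages (-2.26 and -2.10), with an interval of the difference from -1.02 to 1.34, and 19.5% of its exon length is shared. The summed level of the 18 genes was 204 to 245 CPM in E14.5 WT, 177 to 224 in E14.5 T1, 1551 to 1892 in E18.5 WT and 1159 to 1376 in E18.5 T1.

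**Figure D2:**
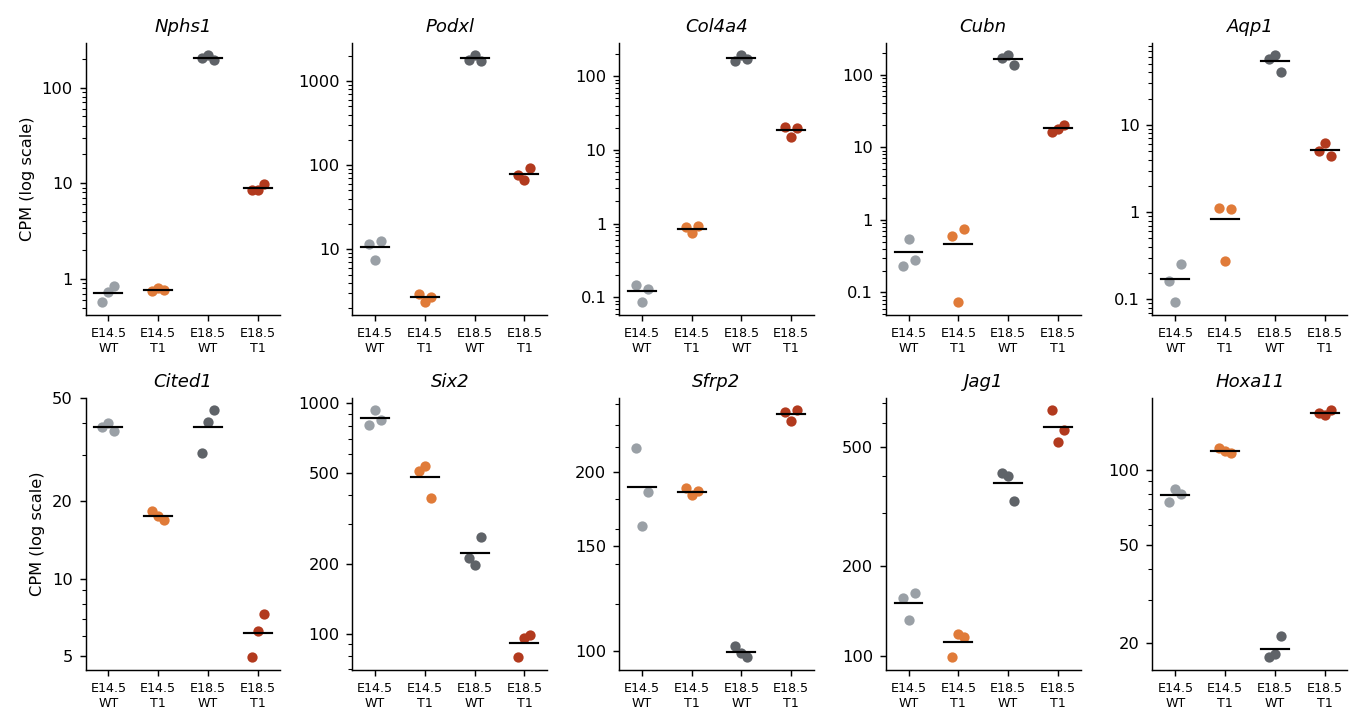
CPM on a log scale in each of the 12 libraries for 10 genes, with points for libraries, horizontal bars for group means and 3 libraries per group. *Nphs1* and *Cubn* overlap between genotypes at E14.5 and separate at E18.5, *Col4a4* and *Aqp1* change sides, *Podxl*, *Six2* and *Cited1* are lower in T1 at both stages, and *Sfrp2*, *Jag1* and *Hoxa11* stand highest in E18.5 T1.

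The nephron progenitor list was split. Of 19 genes, 4 were called with a positive and 5 with a negative difference, and the median was -0.32. The negative count was 3 without E14.5 WT replicate 3, E14.5 T1 replicate 1 or E14.5 T1 replicate 2. *Six2*, the defining transcription factor gene of the cap mesenchyme, was lower in T1 at both stages. Its libraries were at 806, 933 and 847 CPM in E14.5 WT, 509, 534 and 390 CPM in E14.5 T1, 212, 199 and 262 CPM in E18.5 WT and 79.0, 95.8 and 98.8 CPM in E18.5 T1. The groups did not overlap at either stage, and the effects of -0.85 and -1.30 did not differ detectably (difference -0.45 ± 0.18, adjusted p = 0.154).

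*Cited1* marks the earliest, uninduced progenitors. It stood at 38.8, 40.0 and 37.2 CPM in E14.5 WT and at 18.3, 17.5 and 16.8 CPM in E14.5 T1, and at 30.6, 40.4 and 44.8 CPM in E18.5 WT and 4.96, 6.25 and 7.30 CPM in E18.5 T1. WT levels were alike at the 2 stages while T1 levels went down further, and the difference was -1.51 ± 0.20 (adjusted p = 0.000329), a 2.84-fold change of the T1 to WT ratio. *Robo2*, a receptor gene that restrains ureteric budding, *Crym*, a thyroid hormone binding protein gene, and *Bmp7*, a progenitor survival and proliferation factor gene, were lower in T1 at both stages and more so at E18.5, with differences of -0.71, -0.66 and -0.32 (adjusted p = 0.00258, 0.00327 and 0.0291). The *Bmp7* call was lost in 3 of 12 fits with 1 library left out (highest adjusted p = 0.0762).

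Among progenitor genes with positive differences, *Sall1*, a transcription factor gene that maintains progenitors, was at 279, 320 and 306 CPM in E14.5 WT and 232, 261 and 251 CPM in T1 and stood at E18.5 at 370, 352 and 407 CPM in WT and 528, 506 and 528 CPM in T1. Its T1 libraries were below WT at E14.5 and above WT at E18.5, a difference of 0.75 ± 0.10 (adjusted p = 0.000256). *Uncx*, a homeobox gene of the cap mesenchyme, had a difference of 0.52 (adjusted p = 0.00664), *Pgf*, a placental growth factor gene, of 0.94 (adjusted p = 0.028) and *Hoxc10* of 0.63 (adjusted p = 0.00238). *Pgf* was lower in T1 at both stages, with effects of -1.93 and -0.99, and lost its call in 7 of 12 fits with 1 library left out (highest adjusted p = 0.113). *Eya1*, a cofactor gene of SIX2, and *Itga8*, the integrin gene of the metanephric mesenchyme, had T1 effects of about the same size at both stages. Their differences of -0.06 and 0.10 had 95% intervals from -0.43 to 0.31 and from -0.15 to 0.35. *Osr1*, a transcription factor gene of early kidney progenitors, had a difference of -0.58 that was not called (adjusted p = 0.0977).

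Genes of committing progenitors and the renal vesicle went the other way from the podocyte and proximal tubule genes. Of 17, 8 were called with a positive and 0 with a negative difference, and the median difference was 0.57. Their median T1 effect was 0.09 at E14.5 and 0.31 at E18.5, and their summed level was 1871 to 2201 CPM in E14.5 WT, 1908 to 2043 CPM in E14.5 T1, 2378 to 2573 CPM in E18.5 WT and 3244 to 3587 CPM in E18.5 T1. The number called was 4 without E18.5 WT replicate 2, 5 without E18.5 T1 replicate 2 or replicate 3, and 6 to 9 without any other library. It was 5 with replicate number nested in stage.

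*Sfrp2*, a secreted Wnt modulator gene, was at 162 to 219 CPM in E14.5 WT, 182 to 188 CPM in E14.5 T1, 102, 98.9 and 97.4 CPM in E18.5 WT and 252, 244 and 254 CPM in E18.5 T1. The genotypes overlapped at E14.5 and T1 stood above WT at E18.5, for a difference of 1.35 ± 0.12 (adjusted p = 9.59e-06); 16.1% of its exons overlap *Gm26771*. *Jag1* and *Dll1* encode Notch ligands of the differentiating vesicle. *Jag1* was at 157, 132 and 163 CPM in E14.5 WT and 99.1, 119 and 116 CPM in T1, and at 409, 400 and 329 CPM in E18.5 WT and 662, 520 and 570 CPM in T1, so that T1 was below WT at E14.5 and above it at E18.5 (difference 1.06 ± 0.15, adjusted p = 0.000773). *Dll1* was at 32.6 to 50.6 CPM and 20.5 to 24.1 CPM in E14.5 WT and T1 and overlapped at E18.5 (51.9 to 62.8 CPM and 56.3 to 76.2 CPM). Its difference was 1.01 ± 0.22 (adjusted p = 0.0117), and the adjusted p was 0.0511 without E18.5 WT replicate 2; 20.5% of its exons overlap *A930024N18Rik*.

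*Bmp2*, a BMP ligand gene, had a difference of 1.00 (adjusted p = 0.00172) and *Osr2*, a transcription factor gene of the forming nephron, of 0.87 (adjusted p = 0.00248). *Wnt4*, whose product drives the mesenchymal to epithelial transition of the renal vesicle, was at 217 to 296 CPM in E14.5 WT and 278 to 325 CPM in E14.5 T1, and at 234 to 250 CPM in E18.5 WT and 398 to 445 CPM in E18.5 T1. Its difference of 0.57 ± 0.13 (adjusted p = 0.0182) lost its call in 4 of the 12 fits with 1 library left out, each time an E18.5 library, where the adjusted p reached 0.0806. *Lhx1*, a transcription factor gene of the renal vesicle, was lower in T1 at both stages (effects -1.12 and -0.60) and its difference was not called (adjusted p = 0.134). *Pax2*, a transcription factor gene of the whole lineage, had a difference of 0.63 (adjusted p = 0.0186), lost in 4 of the 12 fits (highest adjusted p = 0.0771).

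*Hox* genes, which encode the homeodomain factors of axial and regional identity, had the second highest share of called members among the lists, after podocyte genes. Of 36 tested, 22 were called with a positive and 0 with a negative difference, and the median difference was 0.93. The median T1 effect was already positive at E14.5, at 0.83, and was 1.70 at E18.5. The summed level was 1246 to 1335 CPM in E14.5 WT and 2409 to 2462 CPM in E14.5 T1, and 969 to 1132 CPM in E18.5 WT and 3812 to 3873 CPM in E18.5 T1. With any library left out, and in each of the other fits of all 12, 22 or 23 members were called and no called member changed sign. Genes of the *Hox* clusters are known ENL targets in leukemia, and the list was chosen knowing that they were raised in these cells.

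*Hoxa11*, which with its paralogs specifies the metanephric kidney, was at 74.3, 84.3 and 79.8 CPM in E14.5 WT, at 123, 120 and 117 CPM in E14.5 T1, at 17.5, 18.1 and 21.3 CPM in E18.5 WT and at 170, 168 and 175 CPM in E18.5 T1. Between E14.5 and E18.5 it fell by 2.06 on the log2 scale in WT, whereas the T1 change was 0.51. The difference was 2.57 ± 0.10 (adjusted p = 4.78e-09), a 5.94-fold change of the T1 to WT ratio. The gene lies at chr6:52242106-52245810 on the minus strand, and 35.0% of its exon length overlaps the antisense gene *Hoxa11os*, with which its reads are pooled. *Hoxa10*, its neighbour in the cluster, has no shared exon and gave a difference of 1.45 ± 0.10 (adjusted p = 7.78e-07), from 297 to 339 CPM against 422 to 428 CPM at E14.5 and from 87.9 to 104 CPM against 336 to 356 CPM at E18.5, WT first. In WT both genes were lower at E18.5 than at E14.5, and in T1 their levels stayed nearer to those of E14.5.

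*Hoxd12* was raised at both stages, at 77.4, 85.7 and 71.6 CPM in E14.5 WT and 278, 283 and 266 CPM in T1, and at 6.82, 4.29 and 6.26 CPM in E18.5 WT and 68.4, 85.5 and 70.5 CPM in T1. The T1 effect went from 1.82 to 3.69 (difference 1.87 ± 0.18, adjusted p = 3.28e-05). *Hoxb7* overlapped in no group and was at 25.5 to 30.3 CPM in E14.5 WT, 32.2 to 34.4 CPM in E14.5 T1, 16.3 to 20.5 CPM in E18.5 WT and 54.1 to 60.9 CPM in E18.5 T1 (difference 1.46 ± 0.13, adjusted p = 1.44e-05). *Hoxb3* was at 3.45 to 3.97 CPM in E14.5 WT and 3.69 to 3.81 CPM in E14.5 T1 and at 15.4 to 19.5 CPM and 47.9 to 54.4 CPM at E18.5 (difference 1.58 ± 0.14, adjusted p = 1.43e-05), and 52.9% of its exon length is shared with *Hoxb3os*. For *Hoxb7* the E14.5 step was small next to the E18.5 step, and for *Hoxb3* no step was seen at E14.5.

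The called members came from all clusters, as the plot of both effects by cluster shows. *Hoxb9*, the member with the highest E18.5 T1 level, was at 37.0 to 40.5 CPM in E14.5 WT, 79.9 to 91.3 CPM in E14.5 T1, 130 to 132 CPM in E18.5 WT and 562 to 652 CPM in E18.5 T1 (difference 1.10, adjusted p = 1.08e-05). Members without a call included *Hoxc4* (1.33 at both stages, difference 0.00 ± 0.14), *Hoxc6* (1.24 and 1.07, difference -0.17 ± 0.12) and *Hoxd13* (1.16 and 1.08, difference -0.08 ± 0.58). For *Hoxc4* and *Hoxc6*, T1 stood above WT in every library at both stages. *Hoxa13*, whose product patterns the most caudal tissues, was at or under 0.0234 CPM in E14.5 WT, 0.625 to 1.11 CPM in E14.5 T1, 0 to 0.166 CPM in E18.5 WT and 5.19 to 7.71 CPM in E18.5 T1, and no fold is given against its E14.5 WT level, which lies at the floor.

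**Figure D3:**
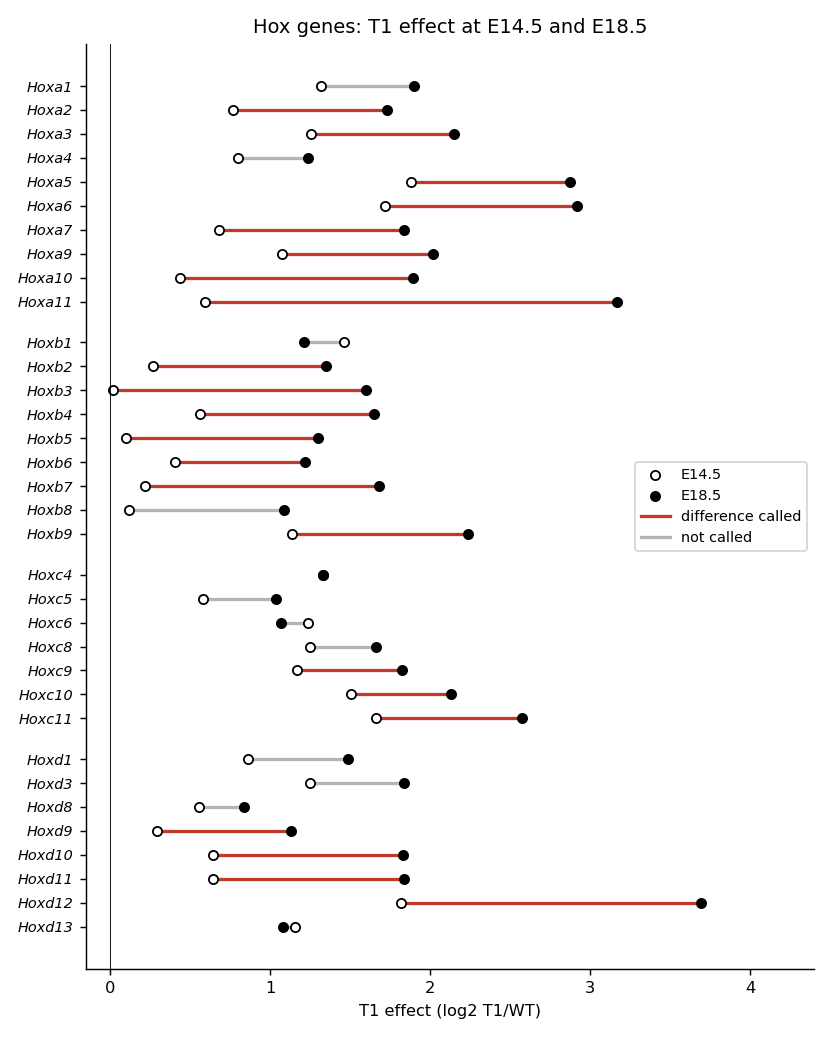
T1 effect (log2 T1/WT) at E14.5 (open points) and E18.5 (filled points) for the 34 *Hox* genes whose mean count exceeded 3 in every group, ordered by cluster and position. Red lines join genes with a called difference. The filled point lies to the right of the open point for *Hoxa11* (0.60 and 3.17), *Hoxd12* (1.82 and 3.69) and the other 20 called genes, and *Hoxc4*, *Hoxc6*, *Hoxb1* and *Hoxd13* are not called.

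Genes that the study showed as raised early in T1 cells were examined next. This list was chosen by the study on these samples, so its E14.5 direction is not independent evidence. Of 18, 3 were called with a negative and 3 with a positive difference, and the median was -0.36. The negative count was 5 without E18.5 WT replicate 3 and 6 with DESeq2, and the median -0.23 without E14.5 WT replicate 2. *Wnt5a*, a ligand of non-canonical Wnt signalling, was at 4.37, 4.75 and 7.18 CPM in E14.5 WT and 28.6, 25.2 and 31.3 CPM in T1, and at 14.9, 15.8 and 11.9 CPM in E18.5 WT and 31.7, 32.0 and 30.7 CPM in T1. T1 levels were about equal at the 2 stages while WT levels rose, and the difference was -1.24 ± 0.23 (adjusted p = 0.00417). *Gata2*, a zinc finger transcription factor gene, and *Snai2*, which encodes a repressor of epithelial genes, also had smaller effects at E18.5 (2.47 to 1.09 and 1.76 to 0.75, differences -1.38 and -1.0, adjusted p = 0.0119 and 0.00766).

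The opposite was found for *Adamts19*, a secreted metalloprotease gene. It was at 6.92, 6.8 and 8.84 CPM in E14.5 WT, 13.3, 15.9 and 13.9 CPM in E14.5 T1, 5.82, 6.53 and 7.16 CPM in E18.5 WT and 60.3, 57.8 and 62.2 CPM in E18.5 T1. WT levels hardly moved, T1 stood above WT at both stages, and the difference was 2.28 ± 0.16 (adjusted p = 1.51e-06). *Adamts15* and *Meis1* followed with 0.75 and 0.64 (adjusted p = 0.00407 and 0.00995), the latter at 0.052 without E18.5 T1 replicate 2 and with 18.3% of its exon length shared. *Wnt2* had a difference of -1.60 that was not called (adjusted p = 0.0668). *Fzd10*, a Wnt receptor gene, *Frzb*, a secreted Wnt antagonist gene, and *Gli1*, a Hedgehog target, stood above WT in every T1 library at both stages (effects 1.14 and 1.05, 0.76 and 0.58, 0.97 and 0.88), with no call on the difference (adjusted p = 0.815, 0.159 and 0.919).

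Among stromal genes, 3 of 12 were called with a negative and 1, *Meis1*, with a positive difference, with a median of -0.83. These are 25% and 8.33%, against 4.22% and 3.94% of all tested genes. The negative count was 6 without E14.5 T1 replicate 2, 5 without E14.5 WT replicate 3 and 2 without E18.5 WT replicate 2, and the positive count 0 without E18.5 T1 replicate 2. The median T1 effect was 2.08 at E14.5 and 1.13 at E18.5. *Col1a2*, a fibrillar collagen gene, was at 55.7, 49.5 and 82.4 CPM in E14.5 WT and 368, 152 and 330 CPM in E14.5 T1, and at 440, 543 and 414 CPM in E18.5 WT and 300, 326 and 308 CPM in E18.5 T1. T1 was above WT at E14.5 and below it at E18.5 (difference -2.76 ± 0.36, adjusted p = 0.000346). *Foxd1*, the transcription factor gene that defines the stromal lineage, was lower in T1 at both stages (144 to 73.4 CPM and 37.5 to 9.84 CPM, means of 3), with a difference of -0.95 (adjusted p = 0.00902). *Ren1*, the renin gene, varied widely, from 0.0143 to 0.596 CPM in E14.5 WT, 1.40 to 5.72 in E14.5 T1, 4.23 to 18.6 in E18.5 WT and 0.740 to 4.69 in E18.5 T1, and its difference of -5.27 ± 1.22 (adjusted p = 0.0171) was not called without E18.5 WT replicate 2 (adjusted p = 0.0564). The summed level of the 12 genes was 487 to 653 CPM in E14.5 WT, 1035 to 2157 in E14.5 T1, 727 to 1113 in E18.5 WT and 1162 to 1323 in E18.5 T1. The sort could hold stromal cells, and their part in these values was not tested.

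**Figure D4:**
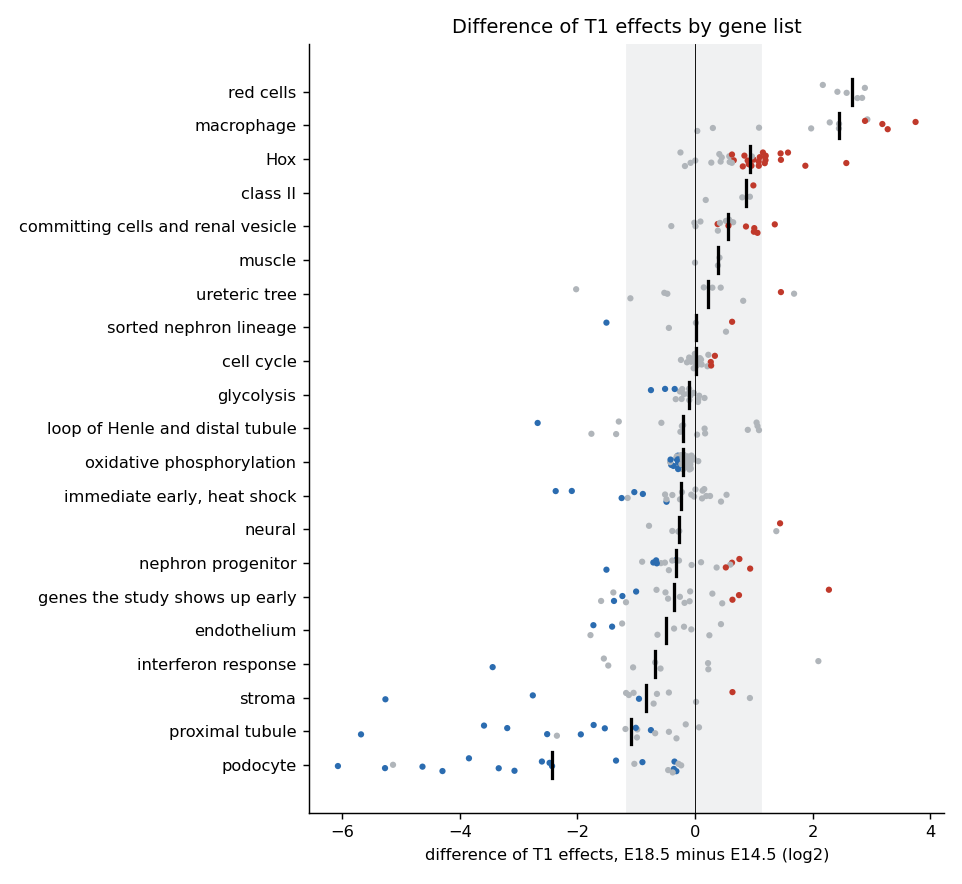
Difference of T1 effects (log2, E18.5 minus E14.5) for the members of 21 gene lists, each point 1 gene whose mean count exceeded 3 in every group, red or blue where called. Black bars are list medians and the grey band spans the central 90% of the 22352 genes above the floor. Podocyte genes extend to -6.07 and *Hox* genes lie almost all above 0.

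Genes whose T1 effect was called at both stages with opposite signs numbered 64. All of them were called for the difference, which opposite calls in the same fit make close to certain. The largest positive differences among them were those of *Rxfp3*, *Itga4*, *Slc15a3*, *Soga3* and *Esyt3*. *Rxfp3*, a receptor gene for a relaxin-family peptide, was at 7.68, 9.15 and 6.06 CPM in E14.5 WT and 0.642, 1.33 and 0.776 CPM in T1, and at 0.202, 0.446 and 0.270 CPM in E18.5 WT and 1.03, 0.752 and 1.01 CPM in T1. The gene went down with age in WT alone (difference 4.67 ± 0.45, adjusted p = 3.03e-05). *Itga4*, the α4 integrin subunit gene, was at 17.9, 13.7 and 9.52 CPM in E14.5 WT, 1.43, 3.13 and 3.50 CPM in E14.5 T1, 8.62, 5.76 and 5.16 CPM in E18.5 WT and 20.7, 19.3 and 18.3 CPM in E18.5 T1 (difference 3.93 ± 0.42, adjusted p = 6.54e-05). *Slc15a3*, *Soga3* and *Esyt3* had differences of 3.66, 2.98 and 2.57 (adjusted p = 0.00041, 0.00145 and 0.00407), with 28.1%, 16.4% and 6.85% of their exon length shared with other genes.

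In the other direction the largest were *Mrgprf*, *Col4a4*, *Aqp1*, *Thsd7a* and *Fmo1*. *Mrgprf*, an orphan receptor gene, was at 0.0078, 0 and 0 CPM in E14.5 WT, below the floor, and at 0.0776, 0.0409 and 0.0287 CPM in E14.5 T1, so only its E18.5 levels are informative, at 5.62 to 6.77 CPM in WT and 0.326 to 0.564 CPM in T1. *Fmo1*, a flavin monooxygenase gene, was at 0.203, 0.0714 and 0.313 CPM in E14.5 WT, 1.66, 0.385 and 1.93 CPM in E14.5 T1, 29.5, 33.5 and 30.2 CPM in E18.5 WT and 7.77, 5.13 and 7.54 CPM in E18.5 T1 (difference -4.96 ± 0.65, adjusted p = 0.000337). *Sema3e*, a guidance cue gene, had a like pattern with a difference of -4.68 ± 0.46 (adjusted p = 3.08e-05), from 0.314 to 0.967 CPM in E14.5 WT and 1.61 to 3.19 in T1 to 20.4 to 26.8 in E18.5 WT and 3.56 to 4.80 in T1. For *Fmo1*, as for *Aqp1*, E14.5 T1 replicate 2 was the lowest library of its group, and the part of stromal cells was not tested.

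*Sst*, the somatostatin gene, had the largest E14.5 effect among genes above the floor that were called for the difference. It was at 0.0936, 0.0999 and 0.0535 CPM in E14.5 WT and 22.4, 21.4 and 23.2 CPM in E14.5 T1, and at 0.379, 0.356 and 0.511 CPM in E18.5 WT and 5.14, 4.42 and 4.86 CPM in E18.5 T1. T1 was far above WT at both stages, and the effect shrank from 8.06 to 3.54 (difference -4.52 ± 0.27, adjusted p = 4.40e-07). *Tnnt2*, the cardiac troponin T gene, gave the largest positive difference of the genes that met the naming rule. It was at 3.12, 2.54 and 1.77 CPM in E14.5 WT, 0.0494, 0.0573 and 0.180 CPM in E14.5 T1, 0.708, 0.675 and 0.838 CPM in E18.5 WT and 1.48, 1.24 and 1.26 CPM in E18.5 T1, below WT at E14.5 and above it at E18.5 (difference 5.52 ± 0.55, adjusted p = 3.55e-05). *Myrip*, a gene of melanosome and vesicle transport, was at 0.227 to 0.357 CPM in E18.5 WT and 5.69 to 7.15 CPM in E18.5 T1 with overlapping E14.5 groups (0.336 to 0.871 and 0.503 to 1.13 CPM), a difference of 4.02 ± 0.52 (adjusted p = 0.000299).

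Several of the largest positive differences belonged to myeloid genes. *Il1b*, the interleukin 1β gene, was at 0.842, 0.200 and 1.09 CPM in E14.5 WT, 0.254, 0.0491 and 0.424 CPM in E14.5 T1, 3.10, 1.8 and 1.92 CPM in E18.5 WT and 15.5, 26.4 and 17.3 CPM in E18.5 T1 (difference 4.64 ± 0.77, adjusted p = 0.00207). *Lilr4b*, an inhibitory receptor gene of myeloid cells, was at 0.777 to 1.5 CPM in E18.5 WT and 8.83 to 16.1 CPM in E18.5 T1 (difference 4.64 ± 0.66, adjusted p = 0.000638). E14.5 groups overlapped for both genes. *Csf3r*, the G-CSF receptor gene, had a difference of 4.16 (adjusted p = 0.0419) that was lost in 10 of the 12 fits with 1 library left out (highest adjusted p = 0.117).

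Of 12 macrophage markers, 4 were called with a positive and 0 with a negative difference, and the median was 2.45. *Lyz2*, the lysozyme gene of macrophages and neutrophils, was at 8.80, 2.50 and 13.7 CPM in E14.5 WT, 3.90, 6.79 and 11.4 CPM in E14.5 T1, 0.657, 0.331 and 0.923 CPM in E18.5 WT and 7.95, 7.71 and 6.89 CPM in E18.5 T1 (difference 3.75 ± 0.74, adjusted p = 0.00665). It was not called by limma-voom (adjusted p = 0.0841). *Adgre1*, which encodes F4/80, had a difference of 3.18 (adjusted p = 0.0112), and *Cx3cr1* and *Tyrobp* of 3.27 and 2.89 (adjusted p = 0.0312 and 0.0448), lost in 10 and 8 of the 12 fits (highest adjusted p = 0.0841 and 0.117). *Csf1r*, the receptor gene that macrophages depend on, had a difference of 0.04 (adjusted p = 0.996) with E18.5 groups that overlapped, and 15.1% of its exon length is shared with *Hmgxb3*. The summed level of the 12 markers was 25.5 to 128 CPM in E14.5 WT, 54.3 to 114 in E14.5 T1, 40.2 to 43.4 in E18.5 WT and 114 to 132 in E18.5 T1, and none of them was at 0 in any library. The number called was 9 without E14.5 WT replicate 1, 5 without E14.5 T1 replicate 3, 3 without E14.5 WT replicate 2 or E18.5 WT replicate 1 and 2 without any other library, and it was 1 with limma-voom and 3 with embryo sex as a term. Without E14.5 WT replicate 3, the highest of its group, the median was 1.25.

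Red cell genes were also higher in E18.5 T1 than in E18.5 WT libraries. The summed level of 8 of them was 0.998 to 110 CPM in E14.5 WT, 64.9 to 119 in E14.5 T1, 104 to 210 in E18.5 WT and 1551 to 2274 in E18.5 T1. The median difference was 2.67 and 0 of 8 were called. E14.5 WT replicate 1 was the lowest library, and without E14.5 WT replicate 3 the median was 1.11. *Hba-a1*, an adult α-globin gene, was at 50.3 to 89.0 CPM in E18.5 WT and 684 to 966 CPM in E18.5 T1. The E18.5 T1 libraries thus held more RNA of blood and macrophage genes than the E18.5 WT libraries. The part of such cells or of their free RNA in the myeloid and globin differences was not tested.

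**Figure D5:**
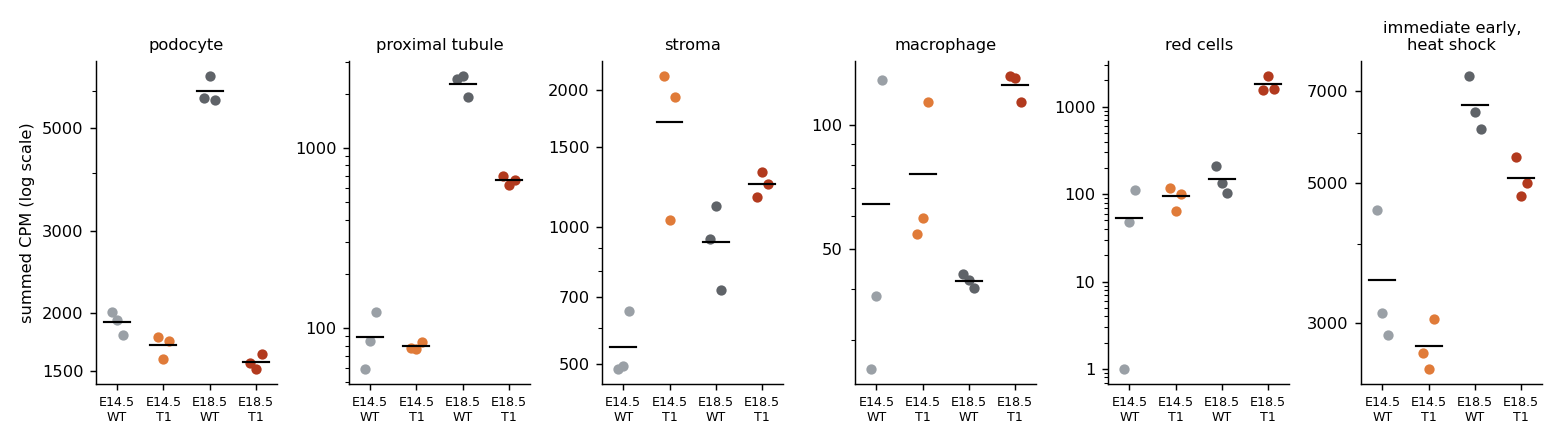
Summed CPM (log scale) of 6 gene lists in each of the 12 libraries, with points for libraries and bars for the mean of 3. Podocyte and proximal tubule sums are highest in E18.5 WT, the stromal sum is raised in E14.5 T1 (1035 to 2157 CPM), and the macrophage and red cell sums are raised in E18.5 T1 relative to E18.5 WT, where the stress gene sum is highest. The podocyte sum includes *Cdkn1c*, with means of 917 CPM in E14.5 WT and 689 CPM in E14.5 T1.

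Of 22 immediate early and heat shock genes, 6 were called with a negative and 0 with a positive difference, 8 had fitted values above 0, and the median was -0.24. That median was -0.54 and 9 were called without E14.5 WT replicate 1, and the median was -0.14 without E14.5 WT replicate 3. *Hspa1a* and *Hspa1b* encode the inducible HSP70 chaperones, which are near-identical copies, so that their reads may be split between them, and 19.0% of the exon length of *Hspa1a* is shared with *Gm20481*. *Hspa1a* was at 3.4, 5.14 and 3.84 CPM in E14.5 WT, 7.03, 6.96 and 8.15 CPM in E14.5 T1, 67.1, 98.7 and 90.9 CPM in E18.5 WT and 30.0, 31.4 and 27.4 CPM in E18.5 T1 (difference -2.37 ± 0.22, adjusted p = 1.79e-05). *Hspa1b* had a difference of -2.10 (adjusted p = 6.61e-05). *Ier3*, *Gadd45b* and *Klf6* had -1.25, -1.03 and -0.89 (adjusted p = 0.000795, 6.61e-05 and 0.00481). The list's summed level was 6080 to 7401 CPM in E18.5 WT and 4767 to 5491 CPM in E18.5 T1, and the part of the longer dissociation at E18.5 in these values was not tested.

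Of 74 nuclear oxidative phosphorylation genes, 14 were called with a negative and 0 with a positive difference, and 73 of the 74 fitted values lay below 0, with a median of -0.21. The number called depended on the fit: it was 3 with libraries scaled by total count, 19 with RLE factors, 33 with DESeq2, 2 with replicate number nested in stage, and from 3 (without E14.5 WT replicate 2 or E14.5 T1 replicate 2) to 33 (without E18.5 WT replicate 3) with 1 library left out. Fits without E14.5 WT replicate 1 or E14.5 T1 replicate 3 called 4 each, and the additive replicate term 5. *Ndufv3* and *Ndufb11*, subunit genes of complex I, had differences of -0.42 and -0.41 (adjusted p = 0.0079 and 0.00681), the latter with 12.9% of its exon length shared. The mitochondrially encoded *mt-Co3* had -0.69 (adjusted p = 0.0309), with 3813, 5230 and 5830 CPM in E18.5 WT and 3787, 3285 and 3479 CPM in E18.5 T1, and it moved with the mitochondrial share given above. Its call was lost in 5 of the 12 fits with 1 library left out (highest adjusted p = 0.0729). Of 18 glycolysis genes, 3 were called negative, namely *Bnip3*, *Slc2a1* and *Hk2* (-0.75, -0.51 and -0.35, adjusted p = 0.0101, 0.0139 and 0.0295), and the median was -0.11. The count was 6 and the median -0.25 without E18.5 T1 replicate 2, and 5 and -0.22 without E18.5 WT replicate 3. The median was also -0.18 without E18.5 WT replicate 2 and -0.17 without E14.5 WT replicate 3, and *Bnip3* shares 22.3% of its exon length. *Hk2* lost its call in 5 of the 12 fits (highest adjusted p = 0.0725).

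Cell cycle genes showed little difference between stages. Of 24, 3 were called with a positive and 0 with a negative difference, which is 12.5% against 3.94% of all tested genes. The median was 0.01, which took either sign (-0.05 to 0.06) with 1 library left out. The count was 1 with RLE factors, without E14.5 WT replicate 1, E14.5 T1 replicate 2 or 3, E18.5 WT replicate 1 or 2, or any E18.5 T1 library, and 5 with libraries scaled by total count. *Mcm7*, a replicative helicase subunit gene, had the largest called value, 0.34 (adjusted p = 0.00499), and 12.6% of its exon length is shared with *Ap4m1*. *Rrm2* and *Mcm2* had 0.27 each (adjusted p = 0.0237 and 0.0262) and lost their calls in 8 and 9 of the 12 fits (highest adjusted p = 0.127 and 0.157). *Cdkn1c*, which encodes the cell cycle inhibitor p57 and was listed among podocyte genes, was at 1015, 935 and 801 CPM in E14.5 WT, 752, 591 and 725 CPM in E14.5 T1, 530, 687 and 665 CPM in E18.5 WT and 178, 189 and 191 CPM in E18.5 T1. T1 was below WT at both stages and more so at E18.5 (difference -1.34 ± 0.16, adjusted p = 0.000127); 30.7% of its exons overlap *Gm44732*.

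The most abundant called genes were also examined. With positive differences they included basement membrane and cytoskeletal genes. *Lamc1*, the laminin γ1 gene, was at 368, 307 and 321 CPM in E14.5 WT, 226, 269 and 274 CPM in E14.5 T1, 1275, 1333 and 1249 CPM in E18.5 WT and 1852, 1735 and 1860 CPM in E18.5 T1, below WT at the first stage and above it at the second (difference 0.87 ± 0.11, adjusted p = 0.000268). *Flna*, the filamin A gene, had the same order with a difference of 0.78 (adjusted p = 0.00275) and *Nisch*, an imidazoline receptor gene, with 0.38 (adjusted p = 0.0063, and 0.0523 without E18.5 WT replicate 2). *Col4a1* and *Col4a2*, the collagen IV chain genes of most basement membranes, had 0.34 and 0.28 (adjusted p = 0.0326 and 0.0475), each lost in 10 of the 12 fits (highest adjusted p = 0.145 and 0.207), in contrast to the -4.30 and -6.07 of *Col4a3* and *Col4a4*. With negative differences, beside *mt-Co3* and *Cdkn1c*, *Hspa5*, the endoplasmic reticulum chaperone gene, had -0.43 (adjusted p = 0.00941), *Lars2*, a mitochondrial leucyl-tRNA synthetase gene, -1.09 (adjusted p = 0.00512) and the mitochondrial ribosomal RNA gene *mt-Rnr1* -0.94 (adjusted p = 0.0112).

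Of the 133 called genes that were named or belong to a list other than the solute carriers and lie above the floor, 93 stayed called with each of the 12 libraries left out in turn, 40 lost their call at least once and none changed sign. *Nphs1*, *Col4a4*, *Podxl*, *Cubn*, *Lrp2*, *Aqp1*, *Cited1*, *Sfrp2*, *Jag1*, *Sall1*, *Adamts19*, *Wnt5a*, *Sst*, *Itga4*, *Tnnt2*, *Hspa1a* and all 22 called *Hox* genes were among the 93.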

How the data were processed

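Sorted tdT+ cells were profiled with the SMART-Seq v4 low-input kit and paired-end sequencing. The authors aligned reads with HISAT2, keeping 1 alignment per read, to mm10 and counted them per gene with HTSeq, ignoring strand and setting the alignment quality cutoff to none. The deposited table holds raw counts for 54752 genes in the 12 sorted libraries, and the annotation release is not given in the sources used here. Of its identifiers, 54723 matched GENCODE vM21, which supplied symbols, GRCm38 coordinates and shared exon lengths.

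Groups followed genotype and stage in the labels. After filterByExpr (minimum count 10, minimum total 15), 25222 genes were tested with TMM factors and edgeR 4.0.16 (R 4.3.3). The quasi-likelihood F test took the contrast of both T1 effects, with Benjamini-Hochberg adjustment over all tested genes and a call at an adjusted p under 0.05. Errors are SE of the log2 difference. Intervals are approximate 95% intervals, made from that SE with a normal quantile, and are somewhat narrower than intervals from the F test would be. CPM used TMM-scaled library sizes. Single-stage calls also needed a fold change above 1.5. The procedure was also run on a simulated draw of counts, with known folds set only in well-counted genes. That run did not measure recovery at low counts or for smaller differences. Replicate correlations of log CPM were 0.9792 to 0.9852, and no pair of libraries agreed within sampling noise. The replicate numbers did not pair libraries (deviation correlations of -0.034 to 0.1 over 18 same-numbered pairs).

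Members and gene lists were chosen with earlier results of these data known. Named genes were *Mllt1*; the 10 largest differences in each direction above 3 counts in every group with separated genotypes at the stage of the larger effect; the 5 most abundant called genes in each direction; the 5 largest in each direction among genes called at both stages with opposite signs; and up to 4 called members per list with members the study names. Other list members were named after their values were seen, for their known roles. The 22 lists were nephron progenitor, committing progenitor, podocyte, proximal tubule, loop and distal tubule, genes the study showed as raised early, cell cycle, oxidative phosphorylation, glycolysis, stress, macrophage, class II, interferon, red cell, endothelium, ureteric tree, stroma, neural, muscle, sorted nephron lineage, *Hox* and solute carrier genes. Some genes are in more than 1 list, among them *Hoxb7*, *Hoxc10*, *Meis1* and *Cited1*, and their calls are counted in each. Alternatives were DESeq2 1.42.0, edgeR's likelihood ratio test, limma-voom (limma 3.58.1), other scalings and filters, replicate terms, stricter folds, omission of X and Y genes and each library left out. A term for embryo sex, read from *Xist*, was chosen after seeing the data. Whole-kidney and stromal libraries were not used here, and some genes are not reported here.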

Additional observations from a re-analysis of the deposited data

Results flagged for a closer look

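The T1 effect differed between E14.5 and E18.5 in the interaction test for 995 genes in the positive and 1064 in the negative direction. For 64 of these, the effect was also called at each stage with opposite signs. Those above the detection floor with the largest positive differences among the 64 were *Rxfp3* (4.67), *Itga4* (3.93), *Slc15a3* (3.66), *Soga3* (2.98) and *Esyt3* (2.57), which were lower in all T1 libraries at E14.5 and higher in all of them at E18.5. *Col4a4* (-6.07), *Aqp1* (-5.68), *Thsd7a* (-5.27) and *Fmo1* (-4.96) had the reverse order. A gap test for outlying libraries was not applied to groups of 3, and each library was left out in turn instead.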

How the results depend on the processing

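The 995 positive and 1064 negative calls became 1269 and 1787 with DESeq2, 1263 and 1342 with the likelihood ratio test, 1197 and 1233 with limma-voom, 764 and 1184 with RLE factors, 1268 and 882 with library size alone, 878 and 1477 without a low-count filter, 1160 and 1100 with a CPM filter, 971 and 1027 without X and Y genes and 929 and 1007 with embryo sex as a term. Positive calls made up 48.3% of the calls, against 59% with library size alone, 39.2% with RLE factors, 37.3% without the filter and 31.4% without E18.5 WT replicate 3. A size above log2 of 1.5 left 540 positive genes, and a size above 1 left 287 and 498. With 1 library left out there were 453 to 1027 positive and 781 to 1329 negative calls. The replicate block gave 765 and 860 calls, and nested in stage 669 and 811. The numbers do not pair the libraries. The median of all genes moved from 0.02 to 0.06 with library size alone and took the other sign in other fits. It was -0.017 with RLE factors and with DESeq2, -0.036 without the filter and -0.042 without E18.5 T1 replicate 3. Of 133 called genes followed, 96 stayed called in all the other settings and none changed sign. Sign changes were seen in genes with no call: with limma-voom *Eya1* was 0.04, *Gli1* 0.13 and *Hnf4a* -0.22, *Hnf4a* was -0.22 with the replicate block within stage, and *Fxyd6* was -0.01 without the filter. With 1 library left out, ranges that crossed 0 were -0.25 to 0.02 for *Eya1*, -0.34 to 0.16 for *Gli1*, -0.7 to 0.46 for *Hnf4a*, -0.03 to 0.1 for *Fxyd6*, -3.65 to 0.2 for *Slc34a1*, -0.3 to 1.15 for *Umod* and -0.02 to 0.18 for *Itga8*. The causes were not tested. Low E14.5 counts limit *Slc34a1*, *Kap* and *Miox*.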

Other observations

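*H2-Ab1*, a class II antigen presentation gene, was at 22.4 to 30.3 CPM in E14.5 WT, 15.3 to 16.8 in E14.5 T1, 17.5 to 19.0 in E18.5 WT and 21.6 to 22.3 in E18.5 T1, so that T1 was below WT at the first stage and above it at the second (difference 0.99 ± 0.14, adjusted p = 0.000618). It was the 1 called gene of 4 class II genes, whose median was 0.87.

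Of 10 interferon response genes, 2 were called with a negative difference and the median was -0.87. *Ifit3*, an antiviral effector gene, was at 0.0546 to 0.161 CPM in E14.5 WT, 0.139 to 0.690 in E14.5 T1, 9.77 to 12.2 in E18.5 WT and 2.19 to 4.06 in E18.5 T1 (difference -3.44 ± 0.64, adjusted p = 0.00481). *Ifi44* was at 0 in all 3 E14.5 WT libraries and no fold is given. Of 10 endothelial genes, 2 were called negative, which is 20% against 4.22% of all tested genes. They were *Pecam1* (-1.73, adjusted p = 0.0449) and *Emcn* (-1.41, adjusted p = 0.0486), lost in 9 and 10 of the 12 fits with 1 library left out. None was called in 8 of those 12 fits, nor with limma-voom or a replicate term, and 4 were called without E14.5 T1 replicate 2. The endothelium list median was -0.50, with -0.94 without E14.5 T1 replicate 2 and -0.01 without E14.5 T1 replicate 3, and the summed level was 67.6 to 80.2 CPM in E18.5 WT and 52.4 to 68.2 in E18.5 T1.

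Of 11 ureteric tree genes, 1 was called positive, *Hoxb7*, and 3 without E14.5 WT replicate 1. *Hoxb7* is also counted among the called *Hox* genes above. The 1 call is 9.09%, against 3.94% of all tested genes. The ureteric tree median was 0.15 and took either sign, from -0.24 without E14.5 T1 replicate 1 to 0.31 without E14.5 T1 replicate 3. Of 6 neural genes, 1 was called positive, and 2 without E14.5 T1 replicate 1 or E18.5 WT replicate 3. The 1 call is 16.7% of this short list, against 3.94% of all tested genes. The neural median was -0.28, with -0.45 without E18.5 WT replicate 1 and the opposite sign, 0.49, without E18.5 WT replicate 2, and it lay between -0.16 and -0.10 without E14.5 WT replicate 3, E14.5 T1 replicate 1 or 2, E18.5 WT replicate 3 or E18.5 T1 replicate 2 or 3. Of 5 muscle genes, 0 were called, and the muscle median was 0.39, with 0.06 to 0.20 without E14.5 T1 replicate 1, E18.5 WT replicate 1 or 2 or E18.5 T1 replicate 2. Of 5 genes of the sorted nephron lineage, *Pax2* was called positive and *Cited1* negative, with a sorted nephron lineage median of 0.01 that took either sign, from -0.08 to 0.04, with 1 library left out. The *Pax2* call was lost without E18.5 WT replicate 1 or 2 or E18.5 T1 replicate 1 or 2. Of 349 solute carrier genes, 13 were called positive and 44 negative, 3.72% and 12.6%, and their median difference was -0.09. With 1 library left out, 6 to 12 solute carriers were called positive, the fewest without E18.5 WT replicate 2 or E18.5 T1 replicate 1 or 3, and the median was -0.16 to -0.08, the lowest without E18.5 WT replicate 3.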
